A study of Rattus norvegicus with 6 samples.

Results

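The miRNAs rno-miR-320-3p, rno-miR-484 and rno-miR-877, which mammalian cells make without Drosha, were followed in plasma exosomes of control rats and of rats 48 h after remote ischemic pre-conditioning (RIPC). They are 3 of the 763 mature rat miRNAs in the deposited table of counts, and all 3 passed the filter on low counts. The list names them for how they are made, and was chosen with earlier results of these data known. The libraries came from male Sprague-Dawley rats of 7 to 8 weeks. Small RNA of the Control-exosome (C-exo, labelled Control-EXO, 3 libraries) came from rats that received no RIPC. The RIPC-exosome (R-exo, labelled RIPC-EXO, 3 libraries) came from rats whose hind limbs had gone through 4 cycles of banding and release, 5 min each, under anesthesia. Blood was drawn 48 h later, under anesthesia in both groups. Exosomes are small membrane vesicles, here the final pellet of a differential centrifugation of plasma whose earlier spins were meant to remove cells and platelets. Neither the labels nor the methods say whether a library held the plasma of a single rat or of several, or that control rats were anesthetized at the time of banding. The p-values therefore measure the spread between these 6 libraries. In a pellet of this kind, fewer vesicles that carry a miRNA and less of the miRNA per vesicle cannot be told apart.

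Most miRNAs are cut from a long primary transcript by Drosha in the nucleus and then by Dicer in the cytoplasm. The 3 miRNAs studied here skip the Drosha step by different routes. The precursors of miR-320 and miR-484 are short RNAs that begin at the transcription start itself and carry a cap, and Dicer cuts them afterwards. The precursor of miR-877 is a mirtron, a short intron that splicing releases as a hairpin. In the heart, miR-320 is known from studies of ischemia-reperfusion injury, and miR-484 from studies of mitochondrial fission. miR-320 and miR-484 are both regularly found in plasma, and miR-484 has been used as a reference for circulating miRNAs. Counts of mature miRNAs do not themselves show how a precursor was cut.

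The sequences of miR-484 and miR-877 are shown for their seeds, the bases 2 to 8 that pair with targets, and for the intron-like ends of the miR-877 hairpin. They are taken from a table of RefSeq sequences on the GRCr8 rat build, and that table gave a mature sequence for 2 of the 3 miRNAs. No sequence is given for miR-320-3p. In the mature miRNAs the capitals mark the seed.
miR-484: uCAGGCUCaguccccucccgau
miR-344a-5p: uCAGGCUCcuggcuagauu
miR-877: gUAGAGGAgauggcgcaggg
miR-1224: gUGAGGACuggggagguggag
miR-484 shared its seed with 2 other entries of the RefSeq table, miR-344a-5p and miR-344-5p, and the miR-344 precursor is also known as a capped hairpin. miR-344a-5p had 0 counts in all 6 libraries, so among counted miRNAs with this seed in the RefSeq table the reads came from miR-484. Counted miRNAs without a sequence there were not checked for the seed. No other rat miRNA of the table had the seed of miR-877.

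The hairpins show where each mature miRNA lies, with the mature part in capitals.
Mir484 hairpin: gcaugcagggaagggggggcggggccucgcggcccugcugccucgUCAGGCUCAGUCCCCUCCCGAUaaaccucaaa
Mir877 hairpin: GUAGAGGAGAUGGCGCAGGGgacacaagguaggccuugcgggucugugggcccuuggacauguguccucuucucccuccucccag
Mir1224 hairpin: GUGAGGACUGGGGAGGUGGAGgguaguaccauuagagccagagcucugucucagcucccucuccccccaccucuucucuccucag
The Mir877 hairpin (chr20:2816284-2816368, plus strand) begins with GU and ends with AG, the letters at the ends of an intron, and mature miR-877 starts at its first base. It lies within the span of Abcf1, the gene of a translation factor, although the table used does not separate exons from introns. Mir1224 (chr11:93811291-93811375, minus strand), the hairpin of another mirtron, has the same arrangement and lies within the span of Vwa5b2. Among the 419 hairpins that the table of sequences holds, 4 (0.955%) begin with GU and end with AG, and in 2 of them, Mir877 and Mir1224, a mature miRNA starts at base 1. The Mir484 hairpin (chr10:1394905-1394981, minus strand) lies between Nde1 and Marf1. Its mature miRNA spans bases 46 to 67 of 77, and in the fold predicted by RNAfold 13 of its 22 bases pair with bases before it. Mir320a lies next to Polr3d, a gene of an RNA polymerase III subunit.

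Levels are given as CPM, counts per 1000000 counts of a library, after TMM normalization. TMM scales all miRNAs of a library by the same factor, estimated on the assumption that most miRNAs do not change. Adaptor ligation favours some miRNAs over others, so the order of the 3 miRNAs is an order of counts. miR-320-3p was by far the most abundant, with between 94110 and 356385 counts per library and a rank between 5 and 24 among all miRNAs of a library. miR-484 had between 1157 and 1827 counts and a rank between 116 and 146. miR-877 had between 146 and 268 counts and a rank between 209 and 241. The ranges of the 3 miRNAs did not overlap in any library. Counting error alone was at most 0.326% of the value for miR-320-3p, 2.94% for miR-484 and 8.28% for miR-877. By mean CPM over the 6 libraries they ranked 10, 135 and 226 of the 404 miRNAs that passed the filter on low counts. The nearest neighbours in that order, miR-140-3p and let-7i-5p for miR-320-3p, miR-6328 and miR-1b for miR-484, and miR-335 and let-7b-3p for miR-877, each had a range over the libraries that overlapped that of the miRNA beside it.

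miR-320-3p had 79880, 38643 and 13386 CPM in C-exo replicates 1, 2 and 3, and 23985, 13965 and 13341 CPM in R-exo replicates 1, 2 and 3. C-exo replicates 1 and 2 held the highest values, and C-exo replicate 3 lay among the R-exo libraries, below R-exo replicates 1 and 2. The groups therefore overlapped. The mean was 43970 ± 33565 CPM in C-exo and 17097 ± 5973 CPM in R-exo (SD, n = 3 each). The level in R-exo was 0.389 times that of the control. As a log2 fold change this was -1.36 (standard error 0.61, 95% interval -2.74 to 0.018), with an unadjusted p of 0.0525 and an adjusted p of 0.47 (edgeR, quasi-likelihood, with Benjamini-Hochberg adjustment over 404 miRNAs). The exact two-sided permutation test on CPM gave p = 0.3, where 0.1 is the smallest that 3 libraries against 3 allow. In unscaled counts, miR-320-3p took between 1.25% and 6.50% of a library, and the Wilson 95% interval of the lowest share was 1.24% to 1.26%.

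The value of miR-320-3p rested on single control libraries. Without C-exo replicate 3 the log2 fold change was -1.785 (adjusted p = 0.0073, edgeR's quasi-likelihood test), and 132 of the 422 miRNAs tested in that fit had an adjusted p under 0.05. Without C-exo replicate 1 it was -0.72 (adjusted p = 0.85, the same test). Within C-exo the highest library had 5.97 times the CPM of the lowest, against 1.80 times within R-exo.

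miR-484 had 343, 172 and 197 CPM in C-exo replicates 1, 2 and 3, and 160, 262 and 153 CPM in R-exo. The highest value was that of C-exo replicate 1, and R-exo replicate 2 exceeded the other 2 control libraries, so the groups overlapped. The mean was 237 ± 92.2 CPM in C-exo and 192 ± 61.4 CPM in R-exo (SD, n = 3 each). The log2 fold change was -0.31 (standard error 0.46, 95% interval -1.35 to 0.73). The adjusted p of edgeR's quasi-likelihood test was 0.76 and an exact two-sided permutation gave p = 0.5. The interval runs from 0.392 to 1.66 times the control level, and the sign of the value turned when a trend on GC content was removed, as given further on. Without C-exo replicate 1 the log2 fold change was -0.011.

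miR-877 had 46.2, 34.1 and 22.5 CPM in C-exo replicates 1, 2 and 3, and 33.0, 21.0 and 25.1 CPM in R-exo. As for miR-320-3p, C-exo replicate 1 was highest and C-exo replicate 3 was below R-exo replicate 1. The mean was 34.2 ± 11.9 CPM in C-exo and 26.3 ± 6.12 CPM in R-exo (SD, n = 3 each), and the groups overlapped. The log2 fold change was -0.38 (standard error 0.45, 95% interval -1.40 to 0.64). The adjusted p of edgeR's quasi-likelihood test was 0.69 and an exact two-sided permutation gave p = 0.4. The value was -0.18 without C-exo replicate 1, and its sign too turned when the trend on GC content was removed.

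**Figure D1:**
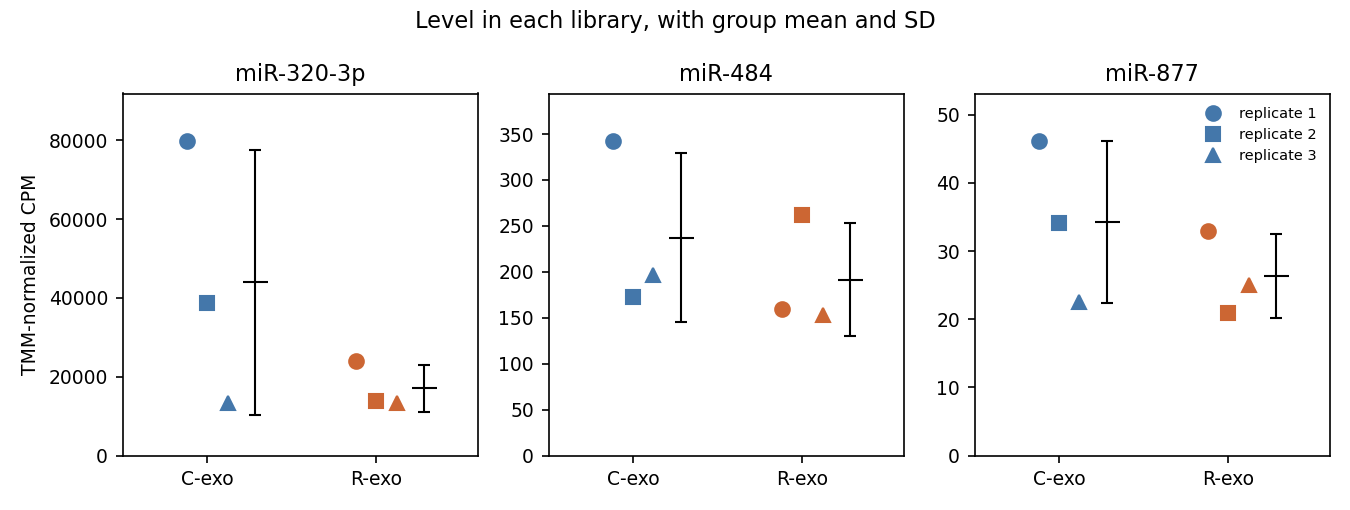
TMM-normalized CPM (vertical axis, linear from 0) of miR-320-3p, miR-484 and miR-877 in the 3 C-exo and 3 R-exo libraries, with the symbol giving the replicate number and the bar giving the group mean and SD. The groups overlap in each panel, and C-exo replicate 1 is the highest library in each.

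The study's criterion asks for a fold above 2 with p below 0.05, taken here as an unadjusted p. It was met by 0 of the 3 miRNAs, where 38 of the 404 tested miRNAs (9.41%) met it and 30 (7.43%) met it with the higher level in C-exo. The split of the calls moved with the scaling, from 8 of 38 higher in R-exo with TMM to 18 of 33 with library size alone, which moved the median log2 fold change of all tested miRNAs from -0.05 to 0.10, while the members stayed below 0 at -1.12, -0.12 and -0.18. No tested miRNA (0%) had an adjusted p under 0.05 in edgeR's quasi-likelihood test, and DESeq2, limma-voom and edgeR's exact test gave 0 as well, while 38 had an unadjusted p under 0.05. The groups were without overlap for 0 of the 3 miRNAs and for 12.9% of all tested miRNAs. All 3 log2 fold changes were below 0, as were those of 207 of the 404 tested miRNAs, with a median of -0.38 against -0.05 over all tested miRNAs. Those of miR-484 and miR-877 were above 0 with the GC correction (0.42 and 0.41). For miR-320-3p the fold change exceeded 2 and only the p missed the criterion, and 8.91% of the tested miRNAs had a larger absolute log2 fold change. The absolute log2 fold changes of miR-484 and miR-877 were larger than those of 25.5% and 31.2% of the tested miRNAs. Whether miR-320-3p met the criterion depended on the analysis, since 6 of 11 alternatives that kept all libraries counted it as a call.

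**Figure D2:**
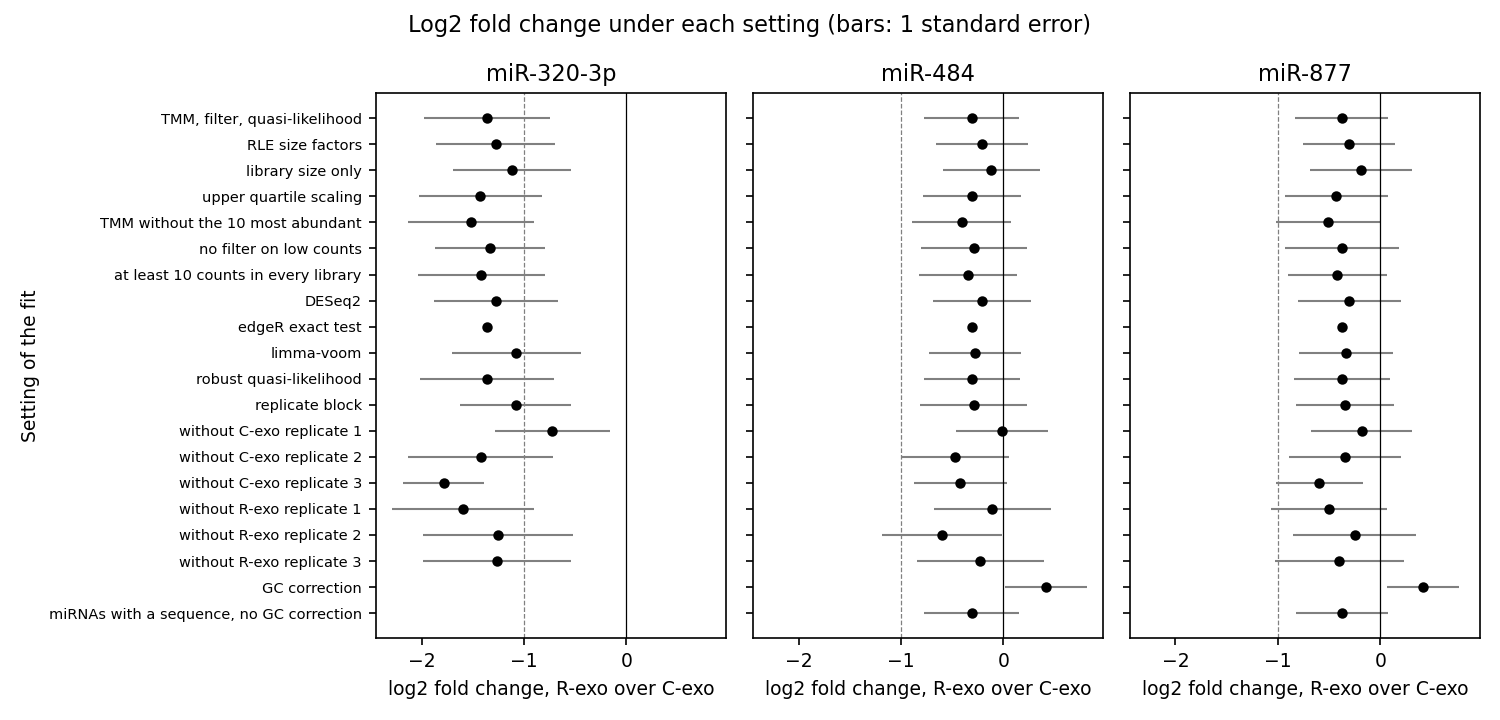
Log2 fold change of R-exo over C-exo (horizontal axis) of the 3 miRNAs under each setting of the fit (rows), with bars of 1 standard error, which edgeR's exact test does not give. The dashed line marks a 2-fold decrease. For miR-320-3p the points lie between -1.785 and -0.72, and for miR-484 and miR-877 they lie below 0 except with the correction for GC content, and the last 2 rows, limited to miRNAs with a sequence, have no point for miR-320-3p.

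The spread between libraries set miR-320-3p apart from the other members. The SD of log2 CPM over all 6 libraries was 1.05 for miR-320-3p, 0.458 for miR-484 and 0.429 for miR-877, against a median of 0.744 over the tested miRNAs. A smaller SD was found for 79.2% of the tested miRNAs in the case of miR-320-3p, 18.3% in the case of miR-484 and 14.6% in the case of miR-877. In CPM without TMM, miR-484 varied with a coefficient of variation of 23.3%, miR-877 of 28.4% and miR-320-3p of 72.0%. Among 6 miRNAs often used as references in plasma, this coefficient was 6.26% for miR-24-3p, 25.4% for miR-191a-5p, 35.6% for miR-103-3p, 41.5% for miR-425-5p, 43.6% for miR-93-5p and 69.2% for miR-16-5p. By this measure miR-484 and miR-877 lay within the range of these references and miR-320-3p just above it. By the SD of log2 CPM all 3 lay within it, since that SD ran from 0.0988 for miR-24-3p to 1.545 for miR-16-5p. In the test itself 3 of the 6 references had a positive and 3 a negative log2 fold change, and 0 met the criterion.

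Ratios within a library do not depend on the scaling between libraries. The counts of miR-320-3p were 233, 224 and 68.0 times those of miR-484 in C-exo replicates 1, 2 and 3, and 150, 53.2 and 87.4 times in R-exo. As a log2 ratio this was 7.25 ± 1.01 in C-exo and 6.47 ± 0.75 in R-exo (SD, n = 3 each), a difference of -0.78 (exact two-sided permutation p = 0.3, Benjamini-Hochberg adjusted over 3 pairs 0.45). The log2 ratio of miR-320-3p to miR-877 was 10.04 ± 0.78 in C-exo and 9.31 ± 0.23 in R-exo, a difference of -0.73 (exact two-sided permutation p = 0.3, adjusted 0.45). The log2 ratio of miR-484 to miR-877 was 2.78 ± 0.41 in C-exo and 2.84 ± 0.71 in R-exo, a difference of 0.055 (exact two-sided permutation p = 1, adjusted 1). All 3 ratios overlapped between the groups. When single libraries were left out, the difference ran from -1.37 to -0.41 for miR-320-3p to miR-484 (without C-exo replicate 3 and R-exo replicate 2) and from -1.14 to -0.37 for miR-320-3p to miR-877 (without C-exo replicates 3 and 1). The difference for miR-484 to miR-877 changed sign, to -0.17 without C-exo replicate 2 and -0.35 without R-exo replicate 2, and was 0.34 without R-exo replicate 1.

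Set against the mean log2 count of the 6 references, each member had a lower mean in R-exo and the groups again overlapped. The difference of the log2 ratio was -1.41 for miR-320-3p (exact two-sided permutation p = 0.3), -0.62 for miR-484 (p = 0.2, the same permutation test) and -0.68 for miR-877 (p = 0.3, the same permutation test), with an adjusted p of 0.3 for each. Without C-exo replicate 3 the differences were -2.29, -0.92 and -1.15, and without C-exo replicate 1 they were -0.84, -0.36 and -0.47. The references did not stay level among themselves, from a log2 fold change of -0.70 for miR-425-5p to 1.25 for miR-16-5p. The value of miR-16-5p rested on C-exo replicate 3, without which it was 2.97 (edgeR adjusted p = 0.0031), and it met the criterion without the filter on low counts, with limma-voom and with the replicate block. Without miR-16-5p in the list the differences were -1.09, -0.31 and -0.36, and without miR-425-5p they were -1.58, -0.80 and -0.86.

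**Figure D3:**
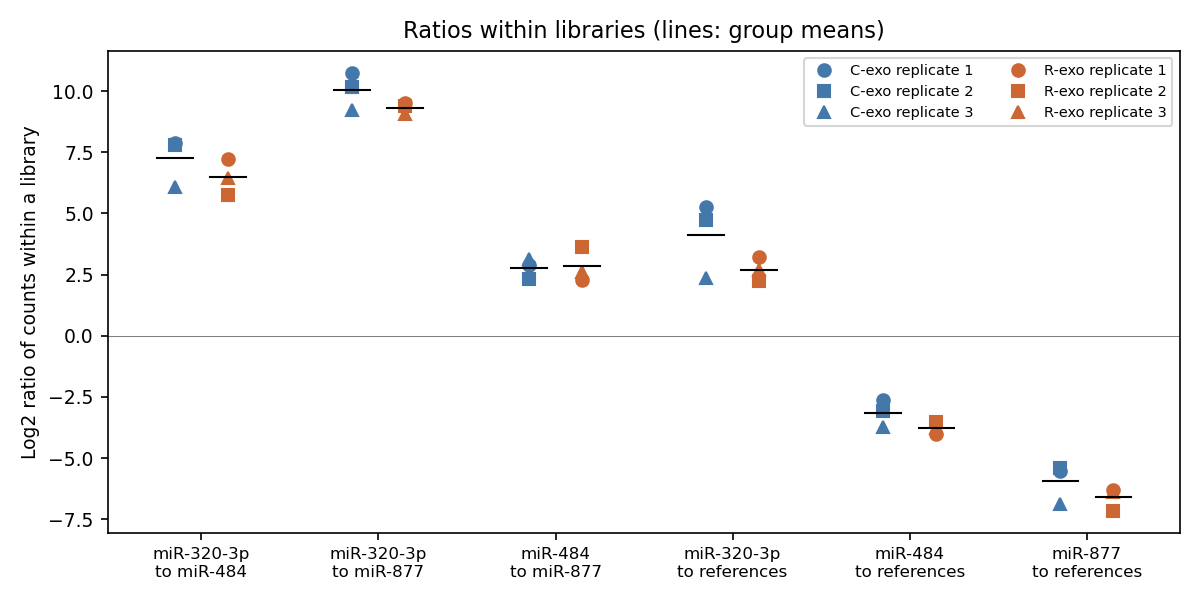
Log2 ratio of counts within each library (vertical axis) between pairs of the 3 miRNAs and between each of them and the mean of 6 reference miRNAs, with lines at the group means. The points of C-exo and R-exo overlap in all 6 ratios, and C-exo replicate 3 lies near the R-exo libraries in the ratios of miR-320-3p.

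The other arm of the miR-320 hairpin, miR-320-5p, was almost absent. It had 4, 2 and 0 counts in C-exo replicates 1, 2 and 3, and 2, 0 and 0 counts in R-exo. Over all libraries 8 counts stood against 1145482 of miR-320-3p, a share of 0.000698% (Wilson 95% interval 0.000354% to 0.00138%). miR-320-5p did not pass the filter on low counts. The table held no other row from the hairpins of miR-484 or miR-877, so the arms of these hairpins could not be compared.

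Other miRNAs known to be mirtrons, capped hairpins or fragments of small nucleolar RNAs (snoRNAs, which guide the modification of other RNAs) filled 16 rows of the table. Of these, 6 had 0 counts in all libraries, 5 of them from miR-344 hairpins, and 7 passed the filter. None of the 7 met the criterion, against the 9.41% of all tested miRNAs given above, and 3 had a negative and 4 a positive log2 fold change with a median of 0.04. The mirtron miR-1224 had 21.5, 17.7 and 8.25 CPM in the C-exo libraries against 14.5, 10.2 and 5.67 CPM after RIPC. Its log2 fold change was -0.64 (SE 0.56, edgeR adjusted p = 0.58). Its highest libraries were C-exo replicates 1 and 2, and the groups overlapped. The other tested mirtron product, miR-702-3p, had 12 to 29 counts per library and a log2 fold change of 0.20. That value was -0.061 without R-exo replicate 1 and 0.74 with the GC correction described further on. miR-3102 and miR-702-5p had at most 10 counts in a library.

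Among these other capped hairpins, miR-344a-3p was the only tested product and its value rested on 1 library. It had 90 counts in C-exo replicate 1 and 14, 14, 30, 14 and 14 counts in the others. The log2 fold change was -1.63 (standard error 0.96), 0.36 without C-exo replicate 1 and -2.08 without C-exo replicate 3 (edgeR adjusted p = 0.057). The snoRNA-derived miR-1839-5p, which RefSeq places on Scarna15, had 116, 110 and 371 CPM in the C-exo libraries against 368, 500 and 285 CPM after RIPC. Its log2 fold change was 0.95 (SE 0.57, edgeR adjusted p = 0.51), and 1.77 (edgeR adjusted p = 0.012) without C-exo replicate 3. Its lowest libraries were C-exo replicates 1 and 2, the libraries in which miR-320-3p was highest. miR-664-3p, also derived from a snoRNA, had 13.4, 5.12 and 65.1 CPM in the C-exo libraries against 12.3, 53.4 and 20.3 CPM after RIPC. Its log2 fold change of 0.037 depended on the library left out. It fell to -0.71 without R-exo replicate 2, -0.43 without C-exo replicate 2 and -0.28 without C-exo replicate 1. It rose most, to 1.65, without C-exo replicate 3. miR-664-2-5p had a log2 fold change of -0.86 (SE 0.61, edgeR adjusted p = 0.51), and -0.34 without C-exo replicate 1. miR-1839-3p had a log2 fold change of 0.85 (SE 0.71, edgeR adjusted p = 0.55), which was 0.15 without R-exo replicate 1, 1.38 without C-exo replicate 2 and 0.26 with the GC correction described further on.

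**Figure D4:**
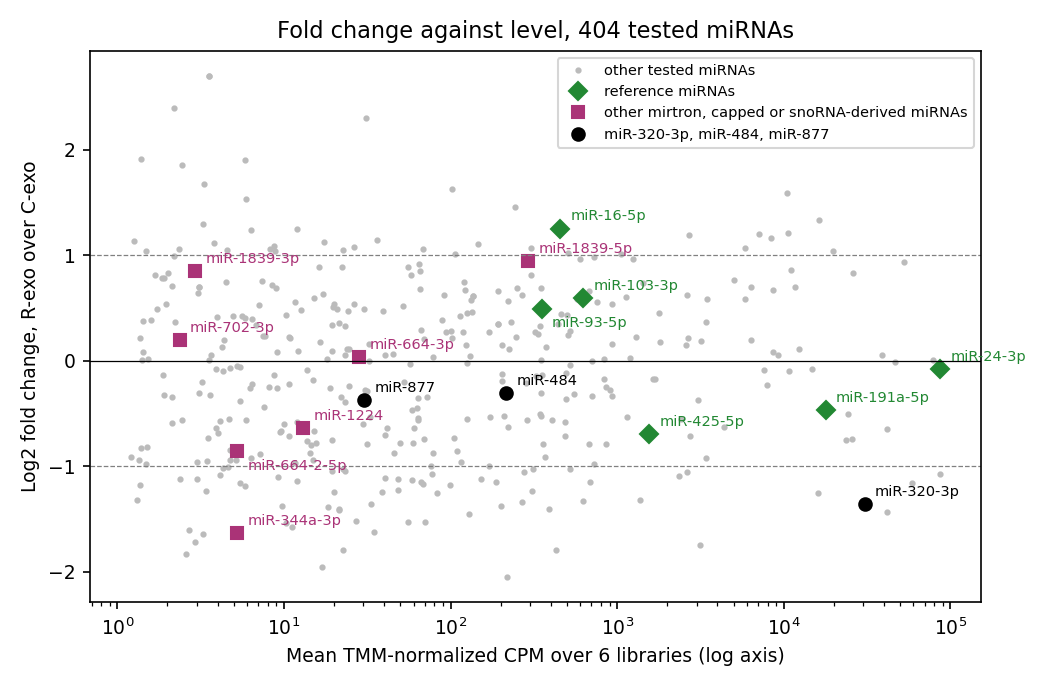
Log2 fold change of R-exo over C-exo (vertical axis) against mean TMM-normalized CPM (horizontal axis, log scale) for the 404 tested miRNAs, with the 3 members in black, the 7 tested miRNAs of other mirtron, capped or snoRNA-derived origin as purple squares and the 6 references as green diamonds. Dashed lines mark 2-fold changes. miR-320-3p lies beyond the lower line and miR-484 and miR-877 lie between the lines.

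Some miRNAs had nearly the same profile over the 6 libraries as a member, by Pearson's r of log2 CPM. For miR-320-3p these were miR-210-3p (r = 0.996), miR-23a-5p (r = 0.995) and miR-326-3p (r = 0.991). miR-877 was most like miR-383-5p (r = 0.993), miR-873-3p (r = 0.982) and miR-221-3p (r = 0.979). For miR-484 the values were lower, with miR-375-3p (r = 0.959), miR-1306-5p (r = 0.938) and miR-222-3p (r = 0.902). Between members r was 0.958 for miR-320-3p with miR-877, 0.517 for miR-320-3p with miR-484 and 0.32 for miR-484 with miR-877. These r values describe 6 points that share library depth and scaling, and the names were picked for having the highest values among all tested miRNAs.

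The base composition of the mature miRNAs moved with the fold change across the table. The same table gave the mature sequence of 364 of the 404 tested miRNAs (90.1%). Spearman's rho between GC content and log2 fold change was -0.619 across them, given only as a description since miRNAs are not independent replicates. The median log2 fold change was 0.62 in the 68 miRNAs with a GC content of 40% or less, 0.042 in the 202 between 40% and 55%, and -0.87 in the 94 with 55% or more, of which 83.0% had a negative value. miR-484 and miR-877 belong to the last group, with a GC content of 63.6% and 65.0% against a median of 47.8%, and their log2 fold changes of -0.31 and -0.38 were nearer to 0 than its median. The libraries of C-exo differed in the same respect. The mean log2 CPM of the GC-rich group minus that of the GC-poor group was 0.746 and 0.0498 in C-exo replicates 1 and 2, -1.74 in C-exo replicate 3, and between -1.81 and -1.48 in R-exo. When a trend on GC content was removed within each library, the log2 fold change was 0.42 (standard error 0.40) for miR-484 and 0.41 (standard error 0.35) for miR-877, the opposite sign, with adjusted p-values of 0.69 and 0.67 from edgeR's quasi-likelihood test over 364 miRNAs. In the same 364 miRNAs without the correction the values were -0.31 and -0.38. C-exo replicates 1 and 2 differed from all R-exo libraries in this trend. Its removal therefore also takes out any difference between the groups that follows GC content. A trend of the libraries and a difference after RIPC cannot be told apart here. The sign for miR-1224 also turned, to 0.27. For miR-320-3p no sequence was used, and the part of GC content in its value was not tested.

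**Figure D5:**
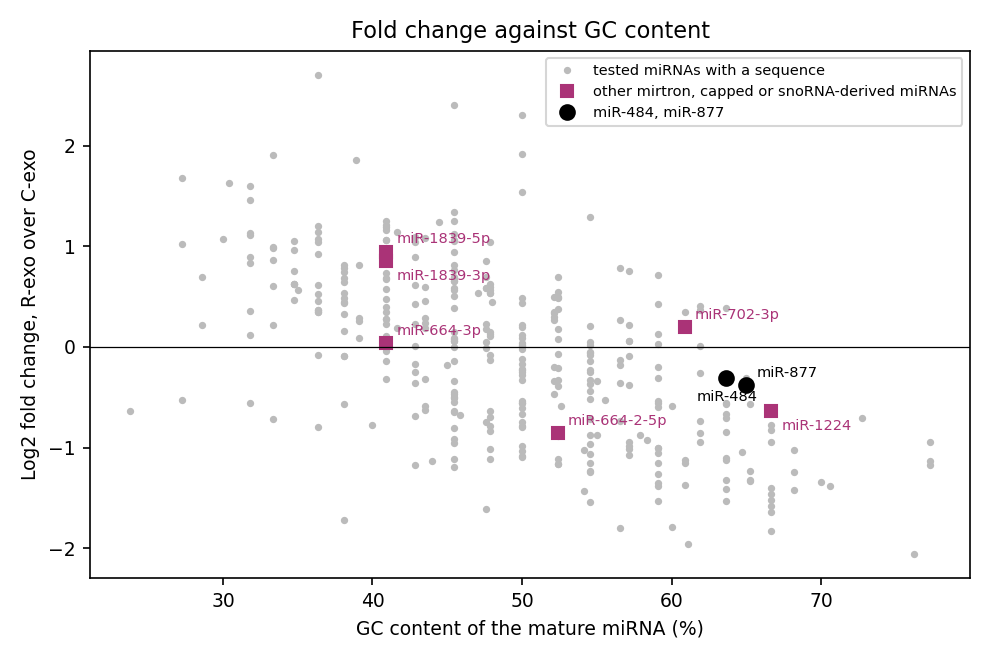
Log2 fold change of R-exo over C-exo (vertical axis) against the GC content of the mature miRNA in percent (horizontal axis) for 364 tested miRNAs, with miR-484 and miR-877 in black and tested miRNAs of other mirtron or snoRNA origin as purple squares. The values fall from left to right (Spearman's rho -0.619), and miR-484 and miR-877 lie in the upper part of the GC-rich miRNAs.

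Over the series, total counts per library were 5484209 to 7531737 in C-exo and 6982273 to 7380752 in R-exo, so that 3 counts, the limit that a count of 0 allows, correspond to between 0.398 and 0.547 CPM before TMM. miRNAs typical of blood cells, liver and muscle were all present, as is usual in plasma. The summed CPM of 4 red cell miRNAs was 69280 to 198100 in C-exo and 44540 to 74970 in R-exo, with the highest values in C-exo replicates 1 and 2, where miR-320-3p was also highest. Nearly all of that sum was miR-486, with 195810, 89951 and 64405 CPM in C-exo replicates 1, 2 and 3, and 40879, 68039 and 57604 CPM in R-exo. The other red cell miRNAs, miR-451-5p, miR-144-3p and miR-144-5p, had log2 fold changes of 0.37, 1.07 and 1.63, opposite in sign to miR-486 at -1.07. The summed CPM of 4 platelet miRNAs was 5964 to 19300 in C-exo and 22240 to 32160 in R-exo, that of 4 leukocyte miRNAs 3131 to 20970 and 11150 to 26500, that of 3 liver miRNAs 79870 to 109300 and 76440 to 81310, and that of 6 striated muscle miRNAs 1524 to 9679 and 1739 to 5063. Most of the platelet sum was miR-126a-3p, with 4632, 7147 and 15885 CPM in C-exo replicates 1, 2 and 3, and 20080, 19837 and 30019 CPM in R-exo. The other platelet miRNAs, miR-223-3p, miR-126a-5p and miR-199a-3p, overlapped between the groups, with log2 fold changes of -0.36, 0.45 and 0.22. None of these markers was at 0 in all libraries, and their part in the values of the 3 members was not tested.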

How the data were processed

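The authors deposited a table of raw counts, 763 mature rat miRNAs by 6 libraries of plasma exosome RNA, without normalization. The submitters' processing notes name bcl2fastq, BWA and the rn6 build, and the trimming, miRNA annotation, mismatch and multi-mapping rules are not given in the sources used here. No molecular identifiers are described, so intervals cover counting error only. Groups came from the sample labels. The filter on low counts was filterByExpr of edgeR 4.0.16 (R 4.3.3, minimum count 10, total 15). Counts were scaled by TMM, and the groups, the sole term of the model, were compared by glmQLFit and glmQLFTest with Benjamini-Hochberg adjustment over 404 miRNAs (common dispersion 0.285). Log2 CPM used a prior count of 2, and ratios added 0.5 to each count. The procedure was also run on counts simulated independently for each miRNA, without a trend on GC content. No result here rests on that run. Alternatives used limma 3.58.1 and DESeq2 1.42.0, folding ViennaRNA 2.7.2, and figures matplotlib 3.10.9.

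The members, the gene lists and the tests were chosen with earlier results of these data known. Named miRNAs were the members, rows of the same hairpins or seeds, miRNAs of other Drosha-independent or snoRNA stems, 6 references, blood and tissue markers, and the 3 most similar profiles and the neighbours in level of each member. The GC correction, a quadratic trend removed through offsets, and the fit on the same miRNAs without it were added after the data were seen. Sequences came from a table of RefSeq entries (GRCr8), which matched 686 of the 763 names. No pair of libraries was as alike as sampling noise would make them.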

Additional observations from a re-analysis of the deposited data

How the results depend on the processing

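The log2 fold change of miR-320-3p was below 0 in all 17 alternatives run for it. It met the criterion of fold and p with upper quartile scaling (-1.425), TMM without the 10 most abundant miRNAs (-1.518), DESeq2 (-1.275), edgeR's exact test (-1.363), all miRNAs with counts kept (-1.334) and 10 counts required of each library (-1.417), and ranged from -1.785 to -0.7212 with each library left out, meeting it without C-exo replicate 3 or R-exo replicate 1. Its unadjusted p was 0.0192 to 0.121 and its adjusted p 0.349 to 0.491 (edgeR, DESeq2 or limma) with all libraries. miR-484 and miR-877 met the criterion in no alternative and were below 0 in all but the GC correction (0.4158 and 0.4141). Calls numbered 63 of the 598 miRNAs tested without the filter. With the GC correction they numbered 22 of 364, against 35 in those 364 without the correction. With each library left out they ran from 15 of 426 to 182 of 422. Calls at an adjusted p under 0.05 numbered 0 to 132 with each library left out, 132 being the fit without C-exo replicate 3 (edgeR's quasi-likelihood test). The difference in the log2 ratio of miR-484 to miR-877 changed sign with libraries left out, from -0.3456 to 0.3385.

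Other reversals were miR-24-3p with RLE (0.001517), library size (0.08909), DESeq2 (0.001515) and the GC correction (0.1444), and from -0.1316 to 0.009379 with libraries left out. With the GC correction miR-1224 was 0.2657 and miR-664-3p -0.1525. With each library left out miR-344a-3p ranged from -2.094 to 0.3597, miR-702-3p from -0.06059 to 0.4697 and miR-664-3p from -0.707 to 1.647. The cause was not tested. With the replicate number as a block the members were at -1.081, -0.2889 and -0.3437, and 0 met the criterion. Whether the replicate numbers pair the libraries is not stated. Deviations of same-numbered libraries correlated at 0.329, -0.275 and 0.279, which cannot settle it.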
